A study of Mus musculus with 20 samples.

Results

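Glutathione S-transferases (GSTs) join the tripeptide glutathione to electrophilic compounds, among them drug metabolites, plant toxins and products of lipid peroxidation, so that these can be exported from the cell and excreted. The soluble enzymes are dimers and fall into classes named by Greek letters, of which alpha, mu, pi and theta are prominent in liver. Hepatocytes are rich in them, many of their genes respond to the oxidant sensor NRF2 and to the xenobiotic receptors CAR and PXR, and in mouse liver the pi class is known to be more abundant in males than in females.

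The 10 GST genes described here were taken by symbol from the table of estimated counts, which held 36106 genes. They are the alpha class genes Gsta1, Gsta2 and Gsta4, the mu class genes Gstm1, Gstm2, Gstm3 and Gstm6, the pi class gene Gstp1, and the theta class genes Gstt1 and Gstt3. All 10 were found, and all 10 were among the 16164 genes that passed the filter on low counts.

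RNA was sequenced from whole liver of 19 male mice in a 2 by 2 layout of operation and air, with the exposure lasting 2 weeks. ORX_IH mice were orchiectomized, which removes the testes and most circulating testosterone, and breathed intermittent hypoxia, the cyclic loss of oxygen used to imitate sleep apnoea (n = 5). ORX_Nx mice were orchiectomized and breathed normal air (n = 5), Sham_IH mice had a sham operation and intermittent hypoxia (n = 5), and Sham_Nx mice had a sham operation and normal air (n = 4). Sham_Nx mouse 1 of the labels was not analysed here. The labels name 1 mouse per library. Strain and age are not given in the sources used here, and neither is a hormone level, so the operation stands for low testosterone without a measurement of it. In whole liver, fewer cells of a type and less RNA per cell cannot be told apart.

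Libraries held 29.3 to 69.6 M estimated counts, so 3 counts, taken as the limit of detection, equal at most 0.108 CPM, a library's counts scaled to a common total with its TMM factor, in the shallowest of them, counting error only. The summed CPM of 8 hepatocyte markers lay between 71535 and 115330 over all libraries, and all 5 androgen-dependent genes used as a check, Cyp2d9, Mup20, Elovl3, Cyp4a12a and Hsd3b5, fell after orchiectomy in both airs. Some libraries stood apart. The sum of 10 skeletal muscle markers was 800 CPM in ORX_IH 1, 475 CPM in ORX_IH 2, 134.8 CPM in Sham_Nx 2 and 34.7 CPM in Sham_Nx 3, against at most 7.40 CPM elsewhere. The sum of 11 pancreatic acinar markers was 1295 CPM in Sham_IH 5, 537 CPM in Sham_Nx 5 and 229 CPM in ORX_IH 1, against at most 25.8 CPM elsewhere. ORX_Nx 4 had the highest sums of Kupffer cell and neutrophil markers, and ORX_Nx 5 the highest sums of lymphocyte, cholangiocyte and stellate cell markers.

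The pi genes lie side by side but did not all move in the same direction, and the alpha genes Gsta1 and Gsta2 are close copies. For these reasons the 250 bases before their annotated starts are shown first, as RefSeq gives them on mouse build GRCm38.p6. Gstp1 (chr19:4037913-4038162, minus strand), Gstp2 (chr19:4042222-4042471, minus strand) and Gstp3 (chr19:4059448-4059697, minus strand) follow each other on chromosome 19. Gsta1 (chr9:78230419-78230668, plus strand) and Gsta2 (chr9:78347146-78347395, minus strand) lie on chromosome 9. Sequences run 5′ to 3′ in the direction of the gene and end at the base before the start. Capitals mark the matches to any of the 4 motifs searched on both strands, which are named after the sequences.
Gstp1: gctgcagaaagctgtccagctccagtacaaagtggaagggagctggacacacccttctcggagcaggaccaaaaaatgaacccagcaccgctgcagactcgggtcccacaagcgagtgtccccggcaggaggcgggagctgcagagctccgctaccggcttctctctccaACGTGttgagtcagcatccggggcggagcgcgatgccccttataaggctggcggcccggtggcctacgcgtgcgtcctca
Gstp2: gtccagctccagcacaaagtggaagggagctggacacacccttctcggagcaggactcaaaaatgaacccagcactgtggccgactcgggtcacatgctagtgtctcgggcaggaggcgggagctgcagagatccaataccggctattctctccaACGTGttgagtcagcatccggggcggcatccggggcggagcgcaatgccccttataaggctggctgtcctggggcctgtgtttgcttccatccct
Gstp3: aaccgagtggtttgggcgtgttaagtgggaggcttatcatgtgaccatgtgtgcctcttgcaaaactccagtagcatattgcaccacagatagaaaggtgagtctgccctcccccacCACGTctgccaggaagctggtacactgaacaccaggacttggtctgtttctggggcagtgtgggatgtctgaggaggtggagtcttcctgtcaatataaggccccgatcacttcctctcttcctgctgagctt
Gsta1: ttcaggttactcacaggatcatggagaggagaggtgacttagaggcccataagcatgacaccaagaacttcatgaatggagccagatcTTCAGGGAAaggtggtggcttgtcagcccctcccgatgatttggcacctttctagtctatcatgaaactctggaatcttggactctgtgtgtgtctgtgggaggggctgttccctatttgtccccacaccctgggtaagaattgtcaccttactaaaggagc
Gsta2: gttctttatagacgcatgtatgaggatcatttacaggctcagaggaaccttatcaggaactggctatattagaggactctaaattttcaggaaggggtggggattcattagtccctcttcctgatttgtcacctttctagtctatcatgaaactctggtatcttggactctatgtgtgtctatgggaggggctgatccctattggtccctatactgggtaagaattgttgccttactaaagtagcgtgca

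Upstream of Gstp1 and Gstp2, 208 bases of the 250-base window were identical in alignment (83.2%), whereas Gstp3 shared 53.2% with Gstp1. Gsta1 and Gsta2 shared 73.6%. The motifs were TGACNNNGC, the core of the antioxidant response element, TTCNNNGAA, the palindrome that STAT factors bind, TGTTCT, a half-site bound by steroid hormone receptors, and ACGTG, the core of elements bound by hypoxia-inducible factors and other helix-loop-helix proteins. Gstp1 and Gstp2 each held ACGTG once, with its first base 80 and 95 bases before the start, and Gstp3 held it once on the opposite strand, ending 129 bases before the start. ACGTG occurred in 16.6% of 32851 windows of the same length before annotated starts. Gsta1 held TTCNNNGAA once, as TTCAGGGAA with its first base 162 bases before the start, a motif found in 7.02% of windows, and Gsta2 held none of the 4. Windows were found for 9 of the 10 members, all but Gsta4. Gstm1 held TGTTCT at 2 places, where 16.1% of windows hold it, and Gstm2, Gstm3, Gstm6, Gstt1 and Gstt3 held no match. TGACNNNGC, present in 10.2% of windows, was in none of the 9. This search accepted only C after TGA. With G in that place, the windows of Gstp1 and Gstp2 hold tgagtcagc and that of Gstp3 holds tgagtctgc. Such stretches were not searched for, marked or counted over all windows. All of these describe letters in a window, and no binding was measured.

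Gstp1, the pi class enzyme (ENSMUSG00000060803), had the largest change of the 10 members after orchiectomy, and it fell. Its level was 199, 317, 218, 485 and 293 CPM in ORX_IH livers 1 to 5, and 171, 177, 247, 333 and 372 CPM in ORX_Nx livers 1 to 5. In sham-operated mice it was 2033, 1045, 1759, 1646 and 1218 CPM in Sham_IH livers 1 to 5, and 1366, 1654, 1521 and 1612 CPM in Sham_Nx livers 2 to 5. The highest orchiectomized liver, at 485 CPM, was below the lowest sham-operated liver, at 1045 CPM, whichever air the mice breathed; ranges of all orchiectomized and all sham-operated livers failed to overlap in 1.6% of the genes tested. In normoxia Gstp1 was 5.91-fold lower after orchiectomy, at 260.2 ± 90.4 CPM in ORX_Nx and 1538.5 ± 128 CPM in Sham_Nx (SD, n = 5 and 4), a log2 change of -2.56 ± 0.27 (SE; edgeR quasi-likelihood test, Benjamini-Hochberg adjusted p = 1e-05). Under intermittent hypoxia it was 5.09-fold lower, at 302 ± 113 CPM in ORX_IH and 1540 ± 403 CPM in Sham_IH (SD, n = 5 each), a log2 change of -2.35 ± 0.26 (SE; edgeR adjusted p = 2.97e-05). These comparisons had no library in common.

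Intermittent hypoxia left Gstp1 near its level in normal air. The log2 change was 0.22 ± 0.25 in orchiectomized mice (SE; 95% interval -0.27 to 0.70; edgeR adjusted p = 0.718) and 0.00 ± 0.26 in sham-operated mice (SE; 95% interval -0.52 to 0.52; edgeR adjusted p = 1). The interval for sham-operated mice therefore reaches about 0.52 in either direction on the log2 scale. The interaction of operation and air was 0.22 ± 0.36 on the log2 scale (SE; edgeR adjusted p = 0.945).

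Both pi class neighbours changed with orchiectomy, one with Gstp1 and one against it. Gstp2, a near copy, averaged 4.57 ± 0.82 CPM in ORX_IH and 4.54 ± 1.76 CPM in ORX_Nx, against 15.7 ± 2.77 CPM in Sham_IH and 16.8 ± 1.48 CPM in Sham_Nx (SD, n = 5, 5, 5 and 4). It fell by 1.89 ± 0.20 (log2 ± SE) in normoxia (edgeR adjusted p = 1.07e-05) and by 1.78 ± 0.20 (log2 ± SE) under intermittent hypoxia (edgeR adjusted p = 2.6e-05). Of the 31-base words in Gstp1 transcripts of the annotation at hand, 38.5% also occur in Gstp2, and 60.3% of the words of Gstp2 occur in another gene, so how reads were divided between the pair is uncertain. With the counts of both summed, the log2 change was -2.55 in normoxia and -2.34 under intermittent hypoxia. Gstp3, of whose words 0.534% occur elsewhere, averaged 11.6 ± 2.68 CPM in ORX_IH and 13.2 ± 2.74 CPM in ORX_Nx, against 6.80 ± 0.80 CPM in Sham_IH and 7.08 ± 0.89 CPM in Sham_Nx (SD, n = 5, 5, 5 and 4). It rose by 0.90 ± 0.17 (log2 ± SE) in normoxia (edgeR adjusted p = 0.00279) and by 0.78 ± 0.16 (log2 ± SE) under intermittent hypoxia (edgeR adjusted p = 0.0111). The lowest orchiectomized liver, at 8.66 CPM, was above the highest sham-operated liver, at 8.29 CPM. The call of Gstp3 in normoxia was lost without the 4 libraries highest in muscle markers, and that under intermittent hypoxia also without the 3 highest in pancreatic markers and with library numbers 1 to 16 only, with adjusted p up to 0.0864 and 0.0682. The fit without the muscle libraries kept only Sham_Nx 4 and 5 of Sham_Nx and ORX_IH 3, 4 and 5 of ORX_IH. Whether calls were lost there through fewer libraries or through muscle content was not tested, here and below. The calls of Gstp1 and Gstp2 held under every alternative tried in both airs.

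**Figure D1:**
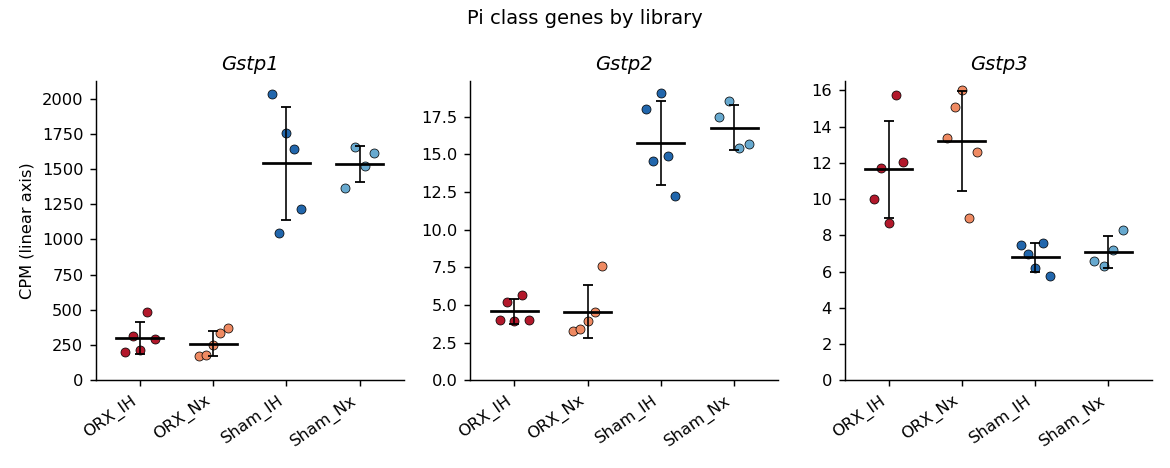
CPM of Gstp1, Gstp2 and Gstp3 (linear axes from 0) in each library, by group, with the group mean as a horizontal line and the SD as a bar (n = 5, 5, 5 and 4 from left to right). Gstp1 reaches at most 485 CPM in orchiectomized livers and is at least 1045 CPM in sham-operated livers, Gstp2 follows it at a lower level, and Gstp3 is higher in the orchiectomized livers.

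Markers of cholangiocytes, bile duct cells that are known to express pi class GSTs, were not called lower in orchiectomized livers in either air. The sum of 8 cholangiocyte markers ranged over 27.9 to 40.3 CPM in ORX_IH, 30.6 to 61.5 CPM in ORX_Nx, 25.9 to 42.5 CPM in Sham_IH and 23.9 to 32.6 CPM in Sham_Nx. Of the 7 that were tested, none fell and 2 rose after orchiectomy in normoxia. In that contrast 7.88% of all genes were called higher and 6.46% lower. Under intermittent hypoxia none was called. The part of cholangiocytes in the fall of Gstp1 was not tested. No marker of the list was at 0 over all libraries.

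Because Gstp1 was so abundant in sham-operated livers, its fall changed the make-up of the 10 members. Other glutathione transferases were not counted in these shares. Gstp1 held 20.2 ± 4.24% of the CPM of the 10 members in ORX_IH and 16.4 ± 5.74% in ORX_Nx, against 56.4 ± 7.98% in Sham_IH and 57.9 ± 3.67% in Sham_Nx (SD, n = 5, 5, 5 and 4). The 10 members together took 1464 ± 265 CPM in ORX_IH and 1594 ± 184 CPM in ORX_Nx, against 2695 ± 353 CPM in Sham_IH and 2667 ± 292 CPM in Sham_Nx (SD, same n). Scaled to CPM per kilobase of the mean transcript length in the authors' table, which allows genes to be compared, the highest level among the 10 members in both orchiectomized groups was that of the mu class gene Gstm1, at 727 ± 106.3 in ORX_IH and 845 ± 116 in ORX_Nx, above Gstp1 at 479 ± 179 and 412 ± 143.1 (SD, n = 5 each). In sham-operated mice Gstp1 was the highest of the 10, at 2438 ± 639 CPM per kilobase in Sham_IH and 2436 ± 202 in Sham_Nx, above Gstm1 at 791 ± 61.6 and 781 ± 141 (SD, n = 5 and 4). Among the 10 members Gstt1 came next in all 4 groups, at 175 and 187 CPM per kilobase in ORX_IH and ORX_Nx and 151.1 and 144.4 in Sham_IH and Sham_Nx, and Gsta1 was lowest in all 4, at 0.875, 8.31, 0.721 and 2.03 in the same order. Outside the 10 members, Gsta3 stood at 626 and 584 CPM per kilobase in ORX_IH and ORX_Nx, above Gstp1 in both.

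**Figure D2:**
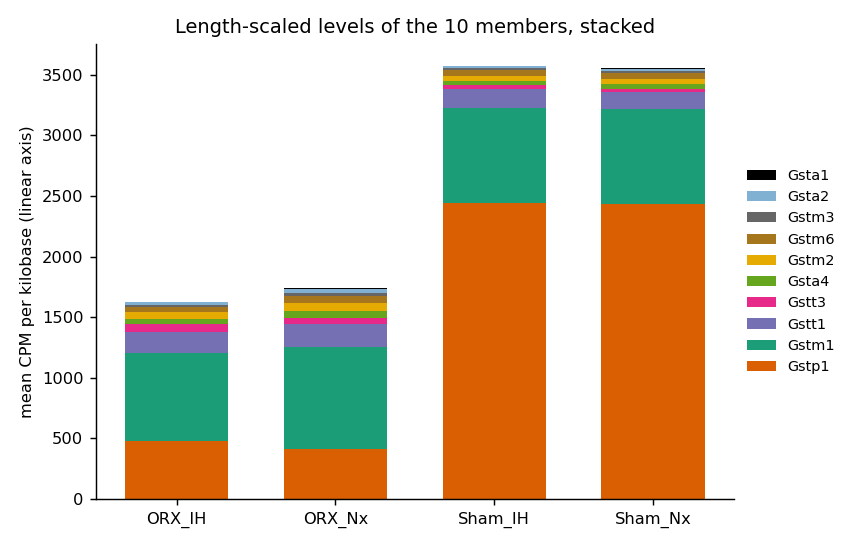
Mean CPM per kilobase of each of the 10 members, stacked, in the 4 groups (linear axis from 0; error is not drawn, and the SD of the 2 tallest parts is given in the text). Gstp1 makes 479 and 412 of the stack in ORX_IH and ORX_Nx and 2438 and 2436 in Sham_IH and Sham_Nx, while Gstm1 lies between 727 and 845 in all 4.

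Among the theta class genes, which act on small halogenated compounds, Gstt3 (ENSMUSG00000001665) rose after orchiectomy in both airs. Gstt3 had 69.7, 94.4, 73.0, 112 and 91.9 CPM in ORX_IH livers 1 to 5, and 71.9, 109, 78.5, 53.3 and 49.4 CPM in ORX_Nx livers 1 to 5. It had 38.5, 62.8, 43.7, 36.1 and 49.8 CPM in Sham_IH livers 1 to 5, and 24.7, 32.3, 26.5 and 44.8 CPM in Sham_Nx livers 2 to 5. Within each air every orchiectomized liver was above every sham-operated one, although ORX_Nx 4 and 5 were below the highest Sham_IH liver. The log2 change was 1.18 ± 0.23 in normoxia (SE; 2.26-fold; edgeR adjusted p = 0.00375) and 0.93 ± 0.22 under intermittent hypoxia (SE; 1.91-fold; edgeR adjusted p = 0.0236).

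Over the alternatives the log2 change stayed between 0.98 and 1.48 in normoxia and between 0.83 and 1.07 under intermittent hypoxia. Without the 4 libraries highest in muscle markers, which left Sham_Nx 4 and 5 in Sham_Nx, edgeR adjusted p was 0.0897 in normoxia. It was 0.111 under intermittent hypoxia, where ORX_IH 3, 4 and 5 were left in ORX_IH. Under intermittent hypoxia it was also above the threshold without ORX_IH 2, Sham_IH 1, Sham_IH 3 or Sham_IH 4, at 0.0586, 0.0698, 0.0632 or 0.0704. Under all alternatives adjusted p ranged over 1.07e-05 to 0.0897 in normoxia and 0.000593 to 0.111 under intermittent hypoxia. Intermittent hypoxia changed Gstt3 by 0.28 ± 0.21 in orchiectomized mice and 0.53 ± 0.23 in sham-operated mice (log2 ± SE; edgeR adjusted p = 0.537 and 0.326), which did not pass the test.

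Gstt1, which lies beside Gstt3 in the RefSeq gene order, did not pass the test in any comparison. It had 99.6, 134.8, 147, 183 and 134.6 CPM in ORX_IH livers, 150, 219, 162, 128 and 87.4 CPM in ORX_Nx livers, 99.0, 127, 109, 137 and 130 CPM in Sham_IH livers, and 120, 106.3, 92.4 and 142 CPM in Sham_Nx livers. The ORX_Nx group was wide and overlapped Sham_Nx at both ends, with ORX_Nx 5 lowest. Averaged over both airs its log2 change after orchiectomy was 0.29 ± 0.14 (SE; edgeR adjusted p = 0.142), and without ORX_Nx 5 it was 0.36 (adjusted p = 0.0381).

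Of the 4 mu class members, Gstm2 (ENSMUSG00000040562) was the one called. Gstm2 had 47.1, 42.1, 45.4, 46.8 and 47.8 CPM in ORX_IH livers 1 to 5, and 39.0, 73.1, 52.3, 43.2 and 80.9 CPM in ORX_Nx livers 1 to 5. It had 35.8, 36.5, 36.1, 26.2 and 39.98 CPM in Sham_IH livers 1 to 5, and 29.5, 32.9, 33.8 and 44.2 CPM in Sham_Nx livers 2 to 5. All ORX_IH livers were above all Sham_IH livers, while ORX_Nx 1 and ORX_Nx 4 were below Sham_Nx 5. The order of the tests was the reverse: Gstm2 rose by 0.72 ± 0.18 (log2 ± SE; 1.64-fold; edgeR adjusted p = 0.0154) in normoxia, and under intermittent hypoxia its change of 0.39 ± 0.17 (log2 ± SE; 1.31-fold) had edgeR adjusted p = 0.234. In a fit of the ORX_IH and Sham_IH libraries alone, where the spread is not shared with the wider ORX_Nx group, the second change was 0.40 ± 0.09 (log2 ± SE; adjusted p = 0.0383), whereas the first lost its call in a fit of its own groups (adjusted p = 0.0834), without Sham_Nx 2 (0.0522) and without the 4 libraries highest in muscle markers (0.202). Over the alternatives adjusted p ranged over 0.00171 to 0.202 in normoxia and 0.0383 to 0.504 under intermittent hypoxia.

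The other mu class members, Gstm1, Gstm3 and Gstm6, were not called in any of the 7 contrasts. Gstm1, the most abundant of them, averaged 781 ± 114.3 CPM in ORX_IH, 908 ± 124 CPM in ORX_Nx, 851 ± 66.2 CPM in Sham_IH and 840 ± 152 CPM in Sham_Nx (SD, n = 5, 5, 5 and 4). Its change with orchiectomy, averaged over both airs, was -0.005 ± 0.089 on the log2 scale (SE; 95% interval -0.180 to 0.170), the narrowest interval of the 10 members. Gstm6 averaged 38.3 ± 6.83, 48.9 ± 10.9, 40.9 ± 5.92 and 42.9 ± 7.26 CPM in ORX_IH, ORX_Nx, Sham_IH and Sham_Nx (SD). Gstm3 had 15.4, 18.3, 18.4, 23.9 and 23.1 CPM in ORX_IH livers, 12.8, 21.9, 23.4, 13.1 and 75.3 CPM in ORX_Nx livers, 20.2, 18.0, 19.5, 14.4 and 21.8 CPM in Sham_IH livers, and 10.2, 13.8, 15.0 and 27.0 CPM in Sham_Nx livers. A single liver, ORX_Nx 5, stood far above the rest, and the change in normoxia of 0.82 ± 0.41 (log2 ± SE; edgeR adjusted p = 0.183) ranged over 0.10 to 1.17 in the alternatives. Part of the reads of Gstm3 and Gstm1 can be shared with other mu class sequences, since 37.7% and 28.8% of their 31-base words occur elsewhere.

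**Figure D3:**
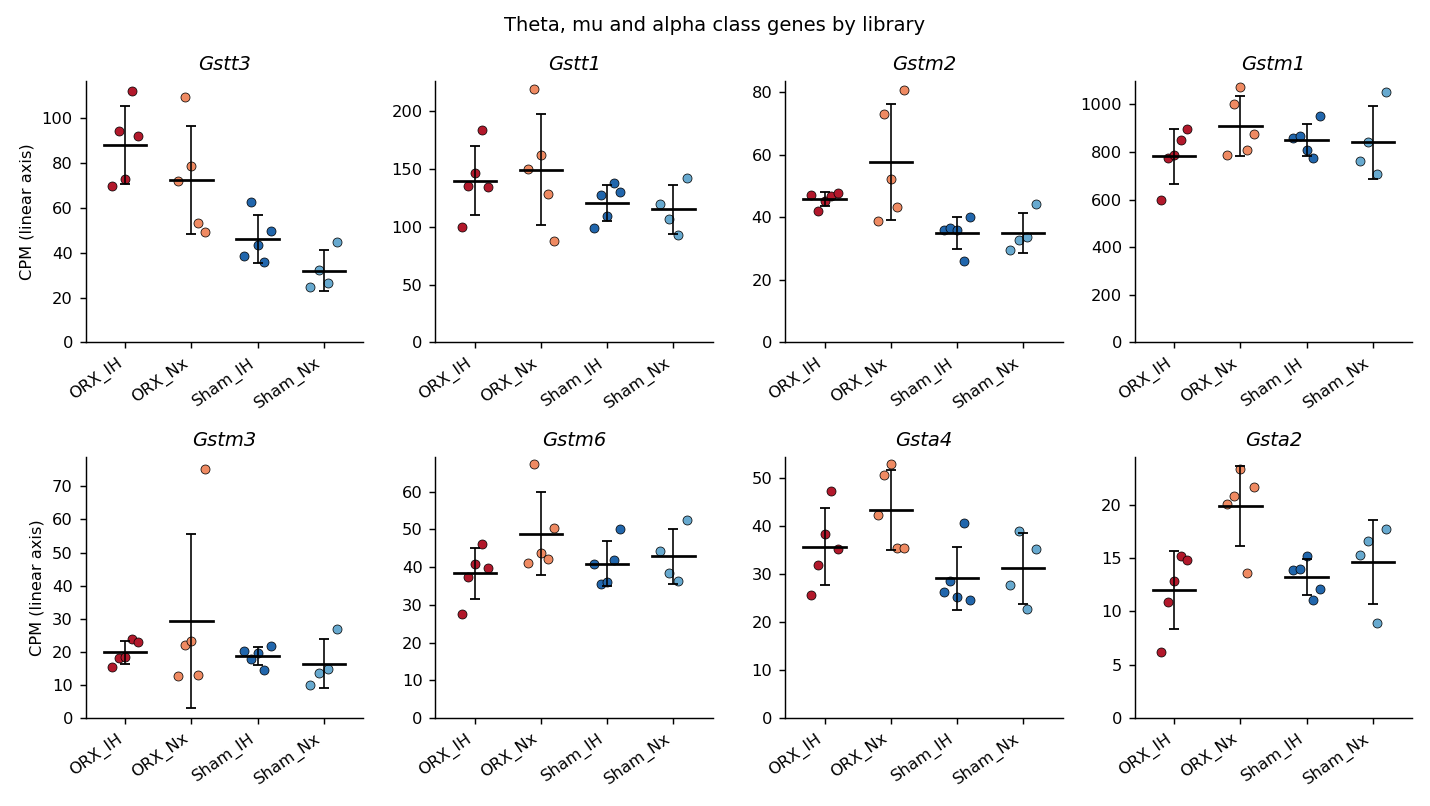
CPM of Gstt3, Gstt1, Gstm2, Gstm1, Gstm3, Gstm6, Gsta4 and Gsta2 (linear axes from 0) in each library, by group, with the mean as a horizontal line and the SD as a bar (n = 5, 5, 5 and 4 from left to right). Gstt3 is higher in orchiectomized livers of either air, Gstm2 spreads from 39.0 to 80.9 CPM in ORX_Nx against 42.1 to 47.8 CPM in ORX_IH, and 1 ORX_Nx liver at 75.3 CPM sets the mean of Gstm3.

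Gsta4, an alpha class enzyme that conjugates 4-hydroxynonenal, a product of lipid peroxidation, was called in 1 comparison and only narrowly. It averaged 35.8 ± 8.07 CPM in ORX_IH and 43.4 ± 8.27 CPM in ORX_Nx, against 29.1 ± 6.61 CPM in Sham_IH and 31.2 ± 7.37 CPM in Sham_Nx (SD, n = 5, 5, 5 and 4), and the ranges of the groups overlapped. Averaged over both airs it rose after orchiectomy by 0.39 ± 0.13 (log2 ± SE; 1.31-fold; edgeR adjusted p = 0.0445). Of 29 alternatives 12 made the call and 17 did not, with adjusted p between 0.00643 and 0.0991; the replicate block gave 0.0505. In the separate airs adjusted p was 0.102 in normoxia and 0.429 under intermittent hypoxia.

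Gsta1 (ENSMUSG00000074183), an alpha class gene with very low counts here, was the member that was lower under intermittent hypoxia. It had 0.245, 0.619, 0.510, 0.392 and 0.795 CPM in ORX_IH livers 1 to 5, and 1.46, 3.45, 2.96, 2.39 and 14.1 CPM in ORX_Nx livers 1 to 5. It had 0.144, 0.186, 1.02, 0.639 and 0.124 CPM in Sham_IH livers 1 to 5, and 1.42, 1.41, 0.614 and 1.30 CPM in Sham_Nx livers 2 to 5. All ORX_IH livers were below all ORX_Nx livers, whereas Sham_IH and Sham_Nx overlapped. The estimated counts behind these values ran from 3.74 in the lowest Sham_IH liver to 504 in ORX_Nx 5.

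Averaged over both operations, Gsta1 fell under intermittent hypoxia, with a log2 change of -2.38 ± 0.45 (SE; 5.20-fold lower; edgeR adjusted p = 0.00898), which placed it 9 from the lowest of 16164 fold changes. In orchiectomized mice alone the change was -3.27 ± 0.63 (log2 ± SE; 9.61-fold lower), with edgeR adjusted p = 0.0506 and DESeq2 adjusted p = 0.000282, and in sham-operated mice alone it was -1.49 ± 0.65 (log2 ± SE; edgeR adjusted p = 0.329). The difference between them, the interaction, was -1.77 ± 0.90 (log2 ± SE; edgeR adjusted p = 0.784), so a different response after the operations was not shown. Without ORX_Nx 5, the liver at 14.1 CPM, the change in orchiectomized mice was -2.34 ± 0.50 (log2 ± SE; adjusted p = 0.0391). The averaged call was lost without the 4 libraries highest in muscle markers (adjusted p = 0.158) and without the 3 highest in pancreatic markers (0.0517), with adjusted p between 7.01e-05 and 0.158 over all 29 alternatives. In the adjusted p for orchiectomized mice the range over alternatives was 0.000282 to 0.27.

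After orchiectomy in normoxia Gsta1 rose by 2.03 ± 0.64 (log2 ± SE; 4.07-fold; edgeR adjusted p = 0.0408), and all ORX_Nx livers were above all Sham_Nx livers, the nearest at 1.46 and 1.42 CPM. This call was lost under 11 of 30 alternatives. Without ORX_Nx 5 the change was 1.10 ± 0.50 (log2 ± SE; adjusted p = 0.16), and it was lost as well on leaving out Sham_Nx 2, 3, 4 or 5, with adjusted p of 0.0776, 0.071, 0.122 and 0.0848. Over the alternatives adjusted p ranged over 0.0182 to 0.217. Under intermittent hypoxia the change after orchiectomy was 0.25 ± 0.65 (log2 ± SE; edgeR adjusted p = 0.881).

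Reads of Gsta1 cannot be told apart well from those of its copies. Of its 31-base words, 92.9% occur in other genes, 80.3% in Gm3776 alone, and in the RefSeq gene order Gm3776 and Gm10639 lie between Gsta1 and Gsta2. Gm3776 had 0.346, 0.309, 0.124, 0.588 and 0.713 CPM in ORX_IH livers, 1.10, 1.54, 1.87, 0.890 and 8.52 CPM in ORX_Nx livers, 0.647, 0.223, 0.633, 0.444 and 0.107 CPM in Sham_IH livers, and 0.689, 1.80, 0.646 and 1.59 CPM in Sham_Nx livers. Averaged over both operations it too fell under intermittent hypoxia, with a log2 change of -2.16 ± 0.46 (SE; edgeR adjusted p = 0.0161), losing the call without the 4 libraries highest in muscle markers and without the 3 highest in pancreatic markers. With the counts of Gsta1 and Gm3776 summed, the averaged change was -2.30 ± 0.42 (log2 ± SE; adjusted p = 0.00673) and the change after orchiectomy in normoxia was 1.68 ± 0.60 (log2 ± SE; adjusted p = 0.065). Summed with the more abundant Gsta2 alone, the averaged change was -0.60 ± 0.17 (log2 ± SE; edgeR adjusted p = 0.0501), which was not called. Summed with Gm3776, Gsta5 and Gsta2, a sum chosen after seeing the data as was that with Gm3776, the averaged change was -0.68 ± 0.18 (log2 ± SE; adjusted p = 0.0402).

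**Figure D4:**
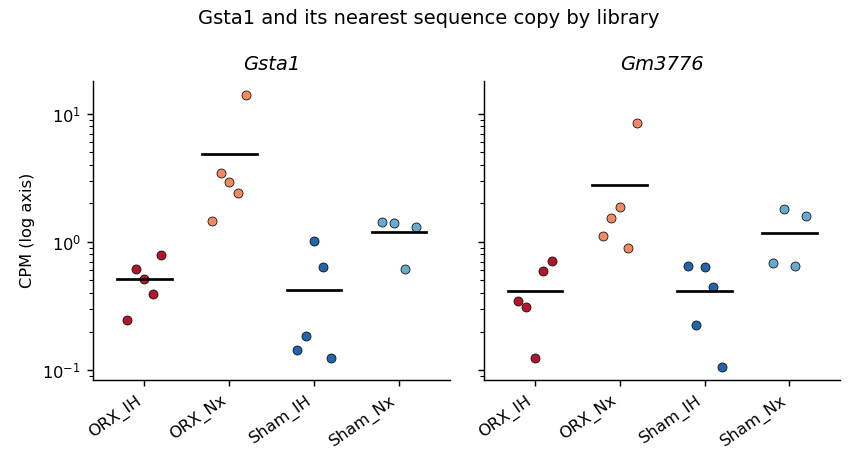
CPM of Gsta1 and of Gm3776, the gene that shares most of its sequence, in each library (log axis), with the group mean as a horizontal line (n = 5, 5, 5 and 4 from left to right). In both genes ORX_Nx 5 is the highest library, at 14.1 and 8.52 CPM, and the ORX_IH livers lie below the ORX_Nx livers.

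Gsta2, the more abundant copy, had 6.17, 10.9, 12.9, 15.2 and 14.8 CPM in ORX_IH livers, 20.1, 20.8, 23.3, 13.5 and 21.6 CPM in ORX_Nx livers, 13.9, 14.0, 15.2, 11.0 and 12.1 CPM in Sham_IH livers, and 15.3, 16.6, 8.90 and 17.7 CPM in Sham_Nx livers. Of the 31-base words of Gsta2, 60.7% occur in other genes and 44.7% in Gsta1, so how its reads were divided is uncertain. Among the ORX_Nx livers, 4 of 5 were above every other library of the study, and ORX_Nx 4 lay within the ORX_IH range. Its change under intermittent hypoxia in orchiectomized mice was -0.73 ± 0.21 (log2 ± SE), with edgeR adjusted p = 0.102 and DESeq2 adjusted p = 0.0248, and over the alternatives adjusted p ranged from 0.0248 to 0.376. ORX_Nx was also the group with the highest sums of Kupffer cell markers, 243 to 1028 CPM against 222 to 352 CPM in ORX_IH, 159 to 214 CPM in Sham_IH and 179 to 292 CPM in Sham_Nx. Of these markers, 10 of 10 rose after orchiectomy in normoxia, where 7.88% of all genes were called higher. After orchiectomy under intermittent hypoxia 0 of the 10 Kupffer cell markers were called, with a median log2 change of 0.56. Between ORX_IH and ORX_Nx 0 were called, with a median of -0.82. Averaged over both airs, 9 of the 10 rose after orchiectomy, where 11.8% of all genes were called higher. The part of such cells in the values of Gsta1, Gsta2, Gstm2 and Gstm3 in ORX_Nx was not tested.

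Among the 10 members, orchiectomy in normoxia raised 3 (Gsta1, Gstm2 and Gstt3) and lowered 1 (Gstp1). Of all genes tested, 14.3% were called there, 7.88% higher and 6.46% lower. The median log2 change of the 10 members was 0.46, against 0.01 over all genes tested. Of the 10 values 9 were positive, while 6 of the 10 were not called. Some members share sequence and all were chosen with earlier results known, so a common rise was not tested. Ranges of the groups did not overlap for 3 members, Gsta1 and Gstt3 above and Gstp1 below (12.3% of all genes, 5.69% above and 6.66% below). Under intermittent hypoxia orchiectomy raised 1 member (Gstt3) and lowered 1 (Gstp1), where 2.88% of all genes were called, 1.31% higher and 1.57% lower, with a median of 0.15 against 0.00. Ranges did not overlap for 3 members there, Gstt3 and Gstm2 above and Gstp1 below (5.85% of all genes, 2.77% above and 3.07% below). Averaged over both airs 3 members rose (Gsta4, Gstm2 and Gstt3) and 1 fell (Gstp1), where 22% of all genes were called, 11.8% higher and 10.1% lower, with a median of 0.34 against 0.00 over all genes. Without library scaling factors the median over all genes was 0.14 in normoxia and 0.13 under intermittent hypoxia, and 86.4% and 85.5% of calls were higher in place of 54.9% and 45.4% (89.4% in place of 53.8% averaged), so values of that size move with the scaling.

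Under intermittent hypoxia in sham-operated mice 0 of 10 members were called by edgeR or by DESeq2, where edgeR called 0.303% of all genes, 0.099% higher and 0.204% lower, and DESeq2 2.56%. An unadjusted p under 0.05 was found for 2 members (Gsta1 and Gstt3) and for 13.1% of all genes. Ranges of Sham_IH and Sham_Nx overlapped for all 10, while they did not for 8.52% of all genes, 4.31% above and 4.21% below. In orchiectomized mice edgeR called 0 of 10, where 0.0742% of all genes were called, 0.0186% higher and 0.0557% lower. DESeq2 called 2 members (Gsta1 and Gsta2) and 4.4% of all genes, and an unadjusted p under 0.05 was found for 3 members (Gsta1, Gsta2 and Gstm6) and 17.1% of all genes. Ranges of ORX_IH and ORX_Nx did not overlap for 1 member, Gsta1, below (2.3% of all genes, 1.18% above and 1.12% below). Averaged over both operations 1 member, Gsta1, fell, where 4.53% of all genes were called, 1.96% higher and 2.57% lower, and the median of the members was -0.18 against 0.00. Higher calls made 43.2% of these, or 30.7% without scaling factors, and in orchiectomized mice 25% of the 12 calls, or 43.8% with RLE scaling. In the interaction 0 of 10 members were called by edgeR or DESeq2, which called 0% and 0.39% of all genes, and 0 members had an unadjusted p under 0.05, against 6.34% of all genes.

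**Figure D5:**
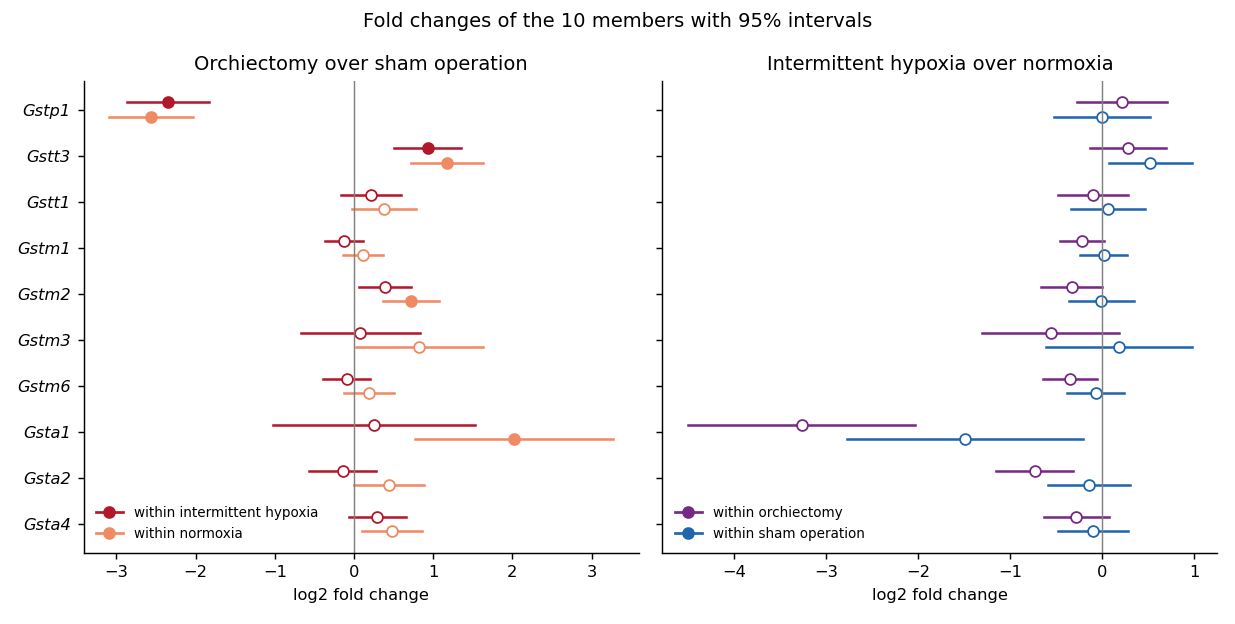
Log2 fold changes of the 10 members with approximate 95% intervals, orchiectomy over sham operation on the left and intermittent hypoxia over normoxia on the right; filled points passed the edgeR test (adjusted p under 0.05) and open points did not. Gstp1 lies at -2.35 and -2.56 after orchiectomy and near 0 under intermittent hypoxia, Gstt3 at 0.93 and 1.18, and Gsta1 has the widest intervals.

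The authors' deposited table of a single F test per gene over the groups lists a q-value under 0.05 for 3 of the 10 members, as for 1450 genes in all. In the authors' deposited table these are Gstp1 (q = 3.59e-05), Gstt3 (q = 0.0102) and Gsta1 (q = 0.0201), while Gstm2 is listed at q = 0.0946 and the other 6 members at 0.282 to 0.718.

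Of 20 other glutathione transferases and microsomal relatives listed, 16 were tested, and averaged over both airs 4 rose and 3 fell after orchiectomy, where 22% of all genes were called. Besides Gstp2 and Gstp3, the mu class gene Gstm7 rose by 0.27 ± 0.06, the omega class gene Gsto1 by 0.22 ± 0.05 and the microsomal Mgst3, of a separate membrane-bound family, by 0.78 ± 0.17 (log2 ± SE; edgeR adjusted p = 0.00373, 0.00368 and 0.00325). Mgst1, a microsomal transferase abundant in liver, fell, with a log2 change of -0.34 ± 0.07 (SE; edgeR adjusted p = 0.00167), at 1635 ± 137.9 CPM in ORX_IH and 1560 ± 192 CPM in ORX_Nx against 1936 ± 121.99 CPM in Sham_IH and 2113 ± 120 CPM in Sham_Nx (SD, n = 5, 5, 5 and 4). Gstk1, of the mitochondrial and peroxisomal kappa class, had a change of -0.13 ± 0.04 (log2 ± SE; edgeR adjusted p = 0.0342), which was 0.00 without scaling factors. The calls of Gstm7 and Gsto1 were lost without the 4 libraries highest in muscle markers, and that of Gstk1 in 17 of 29 alternatives. Gsta3, the most abundant alpha class gene in these livers, averaged 650 ± 239, 606 ± 131, 671 ± 99.6 and 638 ± 167 CPM in ORX_IH, ORX_Nx, Sham_IH and Sham_Nx (SD) and was not called in any contrast. Intermittent hypoxia called none of the 16.

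Of 12 listed genes for export and mercapturate formation, the steps after conjugation, 3 rose and 6 fell after orchiectomy averaged over both airs. In this contrast 11.8% of all genes were called higher and 10.1% lower. The median log2 change of the 12 was -0.10, against 0.00 over all genes. The acetyltransferase Nat8, which completes mercapturates, fell with a log2 change of -1.80 ± 0.25, its relative Nat8f5 with -3.08 ± 0.32 and the exporter Abcg2 with -0.84 ± 0.08 (SE; edgeR adjusted p = 7.61e-05, 2.91e-06 and 9.34e-07). The exporters Abcc3 and Abcc4 rose by 0.32 ± 0.06 and 0.79 ± 0.16 (log2 ± SE; edgeR adjusted p = 0.00173 and 0.00183). Each of these 5 was called in all 29 alternatives. Nat8 and Nat8f5 were scarce, with group means of 1.14 to 4.97 and 0.455 to 6.67 CPM. Their relative Nat8f2, with group means of 1062 to 1352 CPM, fell by less, at -0.270 ± 0.066 (log2 ± SE, edgeR adjusted p = 0.00804). The other calls were Abcc2 at -0.320 ± 0.093, Acy3 at -0.197 ± 0.061 and Abcc1 at 0.626 ± 0.185 (log2 ± SE, edgeR adjusted p = 0.0203, 0.0285 and 0.0221). Intermittent hypoxia, averaged over both operations, called none of the 12. Of 22 tested genes of glutathione synthesis, recycling and breakdown, 1 rose and 4 fell after orchiectomy averaged over both airs, a share near the 22% of all genes called. Ggct, a glutathione breakdown enzyme, rose by 0.45 ± 0.07 (log2 ± SE; edgeR adjusted p = 0.000371, called in all 29 alternatives), while Gclm, Gpx4, Glrx and Txnrd1 fell, with log2 changes between -0.34 and -0.15 and edgeR adjusted p of 0.0224 to 0.0442. The calls of these 4 were lost without scaling factors, among other alternatives. Gclc, Gss and Gsr, which make or regenerate glutathione, were not called. Under intermittent hypoxia, averaged over both operations, Ggt6 rose by 0.39 ± 0.10, and Anpep and Gpx4 fell with log2 changes of -0.23 ± 0.06 and -0.19 ± 0.05 (SE; edgeR adjusted p = 0.0343, 0.0316 and 0.0416), where 4.53% of all genes were called; 16, 16 and 12 of 29 alternatives kept these calls.

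Of 22 NRF2 targets outside the GSTs, 4 rose and 4 fell after orchiectomy averaged over both airs. Over all genes 11.8% were called higher and 10.1% lower. Abcc3, Abcc4, Gclm and Txnrd1, already counted in the lists above, were among these calls. The log2 changes were 0.64 ± 0.15 for Nqo1 and -0.51 ± 0.09 for Ephx1 (SE, edgeR adjusted p = 0.00664 and 0.000606). Under intermittent hypoxia, averaged over both operations, 0 of the 22 rose and 3 fell. There 1.96% of all genes were called higher and 2.57% lower. Ephx1 had a log2 change of -0.40 ± 0.09, and Nfe2l2, which encodes NRF2, fell with -0.20 ± 0.04 (SE, edgeR adjusted p = 0.0165 and 0.00898). The calls of Ephx1 and Nfe2l2 under intermittent hypoxia were lost without the muscle and without the pancreas libraries, and that of Nqo1 without the muscle libraries. Of 10 targets of CAR and PXR, 4 rose and none fell after orchiectomy averaged over both airs, against 11.8% of all genes called higher and 10.1% lower. Slco1a4 rose by 1.71 ± 0.15, Cyp2b10 by 1.48 ± 0.37, Cyp2c55 by 1.01 ± 0.24 and Ugt1a1 by 0.48 ± 0.12 (log2 ± SE, edgeR adjusted p = 4.68e-07, 0.00894, 0.00622 and 0.0082). The calls of Cyp2b10 and Ugt1a1 were lost without the muscle libraries. Cyp2b10 passed under intermittent hypoxia, at 2.33 ± 0.52, and not in normoxia, at 0.63 ± 0.53 (log2 ± SE; edgeR adjusted p = 0.0187 and 0.454), with an interaction of 1.69 ± 0.72 (adjusted p = 0.759). Slco1a4 also rose under intermittent hypoxia averaged over both operations, by 0.87 ± 0.15 (log2 ± SE; edgeR adjusted p = 0.00481). Of 28 listed regulators 3 rose and 2 fell after orchiectomy averaged over both airs, against 22% of all genes called, among them Cux2, a repressor that is female-biased in mouse liver, at 1.57 ± 0.23, Stat5b, a mediator of growth hormone, at 0.28 ± 0.06, and Bcl6, a STAT5 competitor that is male-biased, at -1.65 ± 0.38 (log2 ± SE; edgeR adjusted p = 0.000156, 0.00535 and 0.00581); the call of Bcl6 was lost without the muscle libraries. Bcl6 passed under intermittent hypoxia, at -2.96 ± 0.56, and not in normoxia, at -0.33 ± 0.54 (log2 ± SE; edgeR adjusted p = 0.00593 and 0.726), with an interaction of -2.63 ± 0.78 (adjusted p = 0.537). Cux2 also rose under intermittent hypoxia averaged over both operations, by 1.47 ± 0.23 (log2 ± SE; edgeR adjusted p = 0.00326), a call lost without the muscle libraries.

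The genes whose pattern over the 19 libraries was most like that of each leading member were found by the root mean square difference in mean-centred log2 CPM. Nearest to Gstp1 were C6, a complement component, at 0.33, Lama3, a laminin chain, at 0.37, and Gstp2 at 0.40, where the pattern of Gstp1 itself has a root mean square of 1.31 and the median over all genes is 1.34. Nearest to Gstt3 were Slc17a4, Tfcp2 and Rdh16f2, at 0.27 to 0.29 where Gstt3 has 0.64. Nearest to Gstm2 were Pde1a, Ggct and Mis18a, at 0.20 to 0.23 where Gstm2 has 0.39.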

How the data were processed

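Poly(A)-selected, strand-specific libraries were made from total RNA of frozen liver, per the labels' protocols. The authors deposited estimated counts per gene, which were not whole in 27.5% of values. The submitters' processing notes name kallisto 0.46.1, fastp 0.23.2 and build GRCm39. A second deposited table held log2 values per library, and, from the authors, an F-statistic (unit score), p-value and q-value of each gene; the normalization of its log2 values is not stated.

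Estimated counts were rounded, filtered with filterByExpr (minimum count 10) and scaled by TMM in edgeR 4.0.16 under R 4.3.3. Group contrasts were tested with the quasi-likelihood F-test over 16164 genes in 1 fit of the 4 groups, Benjamini-Hochberg adjusted over all of them, and called at adjusted p under 0.05. SE is the absolute log2 change divided by the square root of F, and 95% intervals use 1.96 SE. CPM used the rounded counts over library totals multiplied by the TMM factors, and CPM per kilobase the mean length the authors' table lists per gene. The 31-base words came from GENCODE M21 transcripts on GRCm38, not the authors' index.

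The named genes were the 10 members, then genes of fixed lists that were called, and for the leading members the 3 genes of most similar pattern; Gm3776 was named for its shared sequence. Members and lists were chosen with earlier results of these data known. Alternatives were DESeq2 1.42.0, limma 3.58.1 on the deposited log2 values, other scalings and filters, fits of the compared groups, a replicate block, library numbers 1 to 16 only and leaving out each library. Fits without 4 muscle-marked, without 3 pancreas-marked and without 2 ORX_Nx libraries, and some sums of copies, were chosen after seeing the data.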

Additional observations from a re-analysis of the deposited data

Results flagged for a closer look

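Of 40 groups of CPM values tested for a library far from the others, 4 stood out by the gap to the nearest library as a share of the group's range; chance does this in about 1 group in 20. For Gsta1 the gap share was 0.842 in ORX_Nx, where ORX_Nx 5 was highest at 14.1 CPM, and 0.849 in Sham_Nx, where Sham_Nx 4 was lowest at 0.614 CPM. For Gstm3 it was 0.831 in ORX_Nx, where ORX_Nx 5 was highest at 75.3 CPM. For Gsta4 it was 0.758 in Sham_IH, where Sham_IH 4 was highest at 40.7 CPM.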

How the results depend on the processing

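No called value of a member reversed. After orchiectomy in normoxia 4 members were called, against 2 with only the compared groups, 1 without the 4 muscle-marked libraries and 2 to 4 on leaving out 1 library. Under intermittent hypoxia 2 were called, against 1 without the muscle-marked libraries and 1 to 2 on leaving out 1 library. Averaged over both airs 4 were called, and 3 to 5 on leaving out 1 library. Some alternatives added members. Without scaling factors Gsta4 was also called in normoxia, and Gsta1 and Gstt1 were also called in the average over both airs. With only the compared groups Gstm2 was also called under intermittent hypoxia. For intermittent hypoxia in orchiectomized mice the count of 0 became 2 with DESeq2 and 0 to 1 on leaving out 1 library. Averaged over both operations the count of 1 became 2 with DESeq2, 0 without the muscle-marked libraries, 0 without the pancreas-marked ones and 1 to 2 on leaving out 1 library. The causes were not tested.

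Calls over all genes moved more: 2319 after orchiectomy in normoxia (422 without the muscle-marked libraries, 3078 with DESeq2), 465 under intermittent hypoxia (107 and, without scaling factors, 971), 3549 averaged (1306 and 4722), and for intermittent hypoxia 49 in sham-operated mice (0 to 483), 12 in orchiectomized mice (0 to 712), 733 averaged (8 to 1444) and 0 in the interaction (63 with DESeq2). Libraries of 1 number showed little common deviation, since of 27 such pairs 5 had a correlation over 0.1. Their correlations ran from -0.197 to 0.395, against -0.276 to 0.346 for other pairs. With so few pairs this check cannot exclude a weak pairing of mice by number. With a replicate block 4, 2, 0, 0, 3, 1 and 0 members were called in the 7 contrasts, the averaged orchiectomy contrast losing Gsta4. Of 50 member values called in no setting, 21 changed sign somewhere. Depth limits Gsta1 most, with 3.74 estimated counts in its lowest library.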
